A study of Mus musculus with 12 samples.

Results

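The transcripts described here are those of 9 genes, Ovgp1, Wfdc2, Krt7, Krt19, Krt8, Krt18, Tppp3, Foxj1 and Pax8, which mark the epithelium of the oviduct or encode keratins of simple epithelia. They were found on the array by gene name, or by a RefSeq accession that maps to the gene, among 21307 named genes, and they are read by 13 of 41174 probes. Ovgp1, Krt7, Krt8 and Pax8 have 2 probes each and the other 5 genes have 1. The 9 genes were chosen by their measured levels: they were picked with their levels in these cells and their differences between twin cells and between experiments already known, so the levels, the differences between experiments and the differences within single embryos are given as a description and without a test.

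The samples are 12 single blastomeres of CF-1 mouse embryos at the 2-cell stage, collected at about 36 h post coitus after natural mating. All embryos were flushed out of the oviduct, and each blastomere was squeezed through a slit in the zona pellucida and profiled alone on an Agilent whole mouse genome array after amplification of its RNA. Experiment 1 holds pairs D, I and L and experiment 2 holds pairs D, G and H, with both cells of each embryo, numbered 1 and 2, so that each experiment has 3 embryos and 6 cells. No group was treated or genetically altered, and the labels do not say what the cell numbers stand for.

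The labels name the dye Cy3 throughout, but the signal of experiment 1 lies in Cy5 and that of experiment 2 in Cy3. Experiment, dye and scan protocol coincide, and no slide holds cells of both experiments. They cannot be told apart in any difference between the experiments given below. In each experiment pair D lay alone on a slide and the other embryos shared another, so pair D cannot be told apart from its slide. The share of spots well above background, by the scanner software's own flag, was 22.1 to 41.7% in experiment 1 and 31.2 to 78.8% in experiment 2. A level is the log2 of the signal relative to the 75th percentile of the array, taken over 5862 probes detected on all 12 arrays. Signals under a floor of -4.13, the highest of the arrays' detection limits, were raised to it and have no order among themselves. A list of 19 oocyte and 2-cell transcripts on the array checked the labelled cell type: its mean signal spanned 1.55 to 2.45 on the log2 scale in experiment 1 and 1.81 to 2.33 in experiment 2, and its values were above background in 90.4% of cases in experiment 1 and 95.6% in experiment 2.

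The lining of the mouse oviduct consists of secretory and ciliated cells. Secretory cells release oviductin, the product of Ovgp1, into the fluid in which the early embryo travels, and the transcription factor Pax8 marks them. Foxj1 is the master transcription factor of motile cilia, and Tppp3, a tubulin-binding protein, is abundant in multiciliated cells. Keratins form filaments as obligate pairs of a type II and a type I chain. In simple epithelia Krt8 and Krt7 are the type II chains and Krt18 and Krt19 the type I chains, and in the mouse embryo Krt8 and Krt18 are known for their expression in the trophectoderm of the blastocyst.

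The promoters of the 4 genes whose levels the results turn on are printed so that their sequence can be read beside the levels: the keratin pair Krt8 and Krt18, and the oviduct genes Ovgp1 and Wfdc2. Each runs from 250 bases before to 50 bases after the start of the gene as RefSeq annotates it on GRCm38.p6, 5′ to 3′ along the gene's strand. RefSeq promoter entries were matched for 6 of the 9 genes, and Krt19, Tppp3 and Foxj1 are named only. Capitals mark matches, on either strand, to 4 motifs: the TATA box TATAAA, the GC box GGGCGG, the AP-1 site TGANTCA and the palindromic estrogen response element.
Krt8, chr15:102004293-102004592 (- strand): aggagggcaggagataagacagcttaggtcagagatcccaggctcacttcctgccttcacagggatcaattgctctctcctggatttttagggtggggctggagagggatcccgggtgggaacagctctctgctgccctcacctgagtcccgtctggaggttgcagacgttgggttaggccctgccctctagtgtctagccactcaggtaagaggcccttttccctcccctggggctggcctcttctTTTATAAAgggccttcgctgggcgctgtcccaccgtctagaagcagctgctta
Krt18, chr15:102027966-102028265 (+ strand): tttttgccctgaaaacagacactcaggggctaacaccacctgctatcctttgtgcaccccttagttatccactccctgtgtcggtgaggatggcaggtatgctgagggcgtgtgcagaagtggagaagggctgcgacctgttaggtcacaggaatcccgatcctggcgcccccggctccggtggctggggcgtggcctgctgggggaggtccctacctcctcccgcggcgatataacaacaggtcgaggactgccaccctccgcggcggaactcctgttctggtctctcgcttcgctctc
Ovgp1, chr3:105973552-105973851 (+ strand): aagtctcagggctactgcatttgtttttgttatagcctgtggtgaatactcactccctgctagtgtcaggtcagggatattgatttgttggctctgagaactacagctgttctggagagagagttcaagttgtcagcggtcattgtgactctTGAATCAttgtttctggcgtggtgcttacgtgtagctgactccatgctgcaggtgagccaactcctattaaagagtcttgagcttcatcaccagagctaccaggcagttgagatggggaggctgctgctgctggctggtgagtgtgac
Wfdc2, chr2:164562465-164562764 (+ strand): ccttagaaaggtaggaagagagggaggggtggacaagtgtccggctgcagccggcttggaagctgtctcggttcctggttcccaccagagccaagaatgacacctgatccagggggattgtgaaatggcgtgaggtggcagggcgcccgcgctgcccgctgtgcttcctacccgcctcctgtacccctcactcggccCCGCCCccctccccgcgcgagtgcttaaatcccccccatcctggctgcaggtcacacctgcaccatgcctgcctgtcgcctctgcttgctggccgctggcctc

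Krt8 held TATAAA on both strands in overlapping positions, beginning at -1 and -3 relative to the annotated start, and 13.6% of 32544 promoters held this motif. Ovgp1 held TGANTCA at -98, a motif found in 7.79% of promoters. Wfdc2 held GGGCGG at -53 on the reverse strand, a motif found in 35.9% of promoters. The same motif occurred 4 times in the Krt7 window and 1 time in that of Pax8, neither of which is printed. None of the 4 motifs occurred in the Krt18 window, and the estrogen response element, present in 0.07% of promoters, occurred in none of the 6. The sequences of Krt8 and Krt18 therefore shared none of the searched motifs, although the genes are neighbours on the RefSeq assembly, with only the long non-coding genes Gm36026 and Gm41404 between them. Neither of these was on the array.

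Of the 9 genes, 6 had every cell of experiment 1 above every cell of experiment 2: Ovgp1, Wfdc2, Krt7, Krt19, Krt8 and Krt18, each by its probe with the highest mean level. Such a separation was seen for 3.96% of the 16723 tested probes, those flagged above background on 6 or more arrays, and the genes were chosen knowing this contrast, so nothing is read from the count. None of the 9 was separated the other way, against 3.7% of probes. The median difference, experiment 1 minus experiment 2, was 4.74 on the log2 scale over the 9 genes and -0.19 over all 16723 probes. Where cells of experiment 2 lie at the floor and those of experiment 1 above it, a difference is a lower bound and is written as at least that value.

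**Figure D1:**
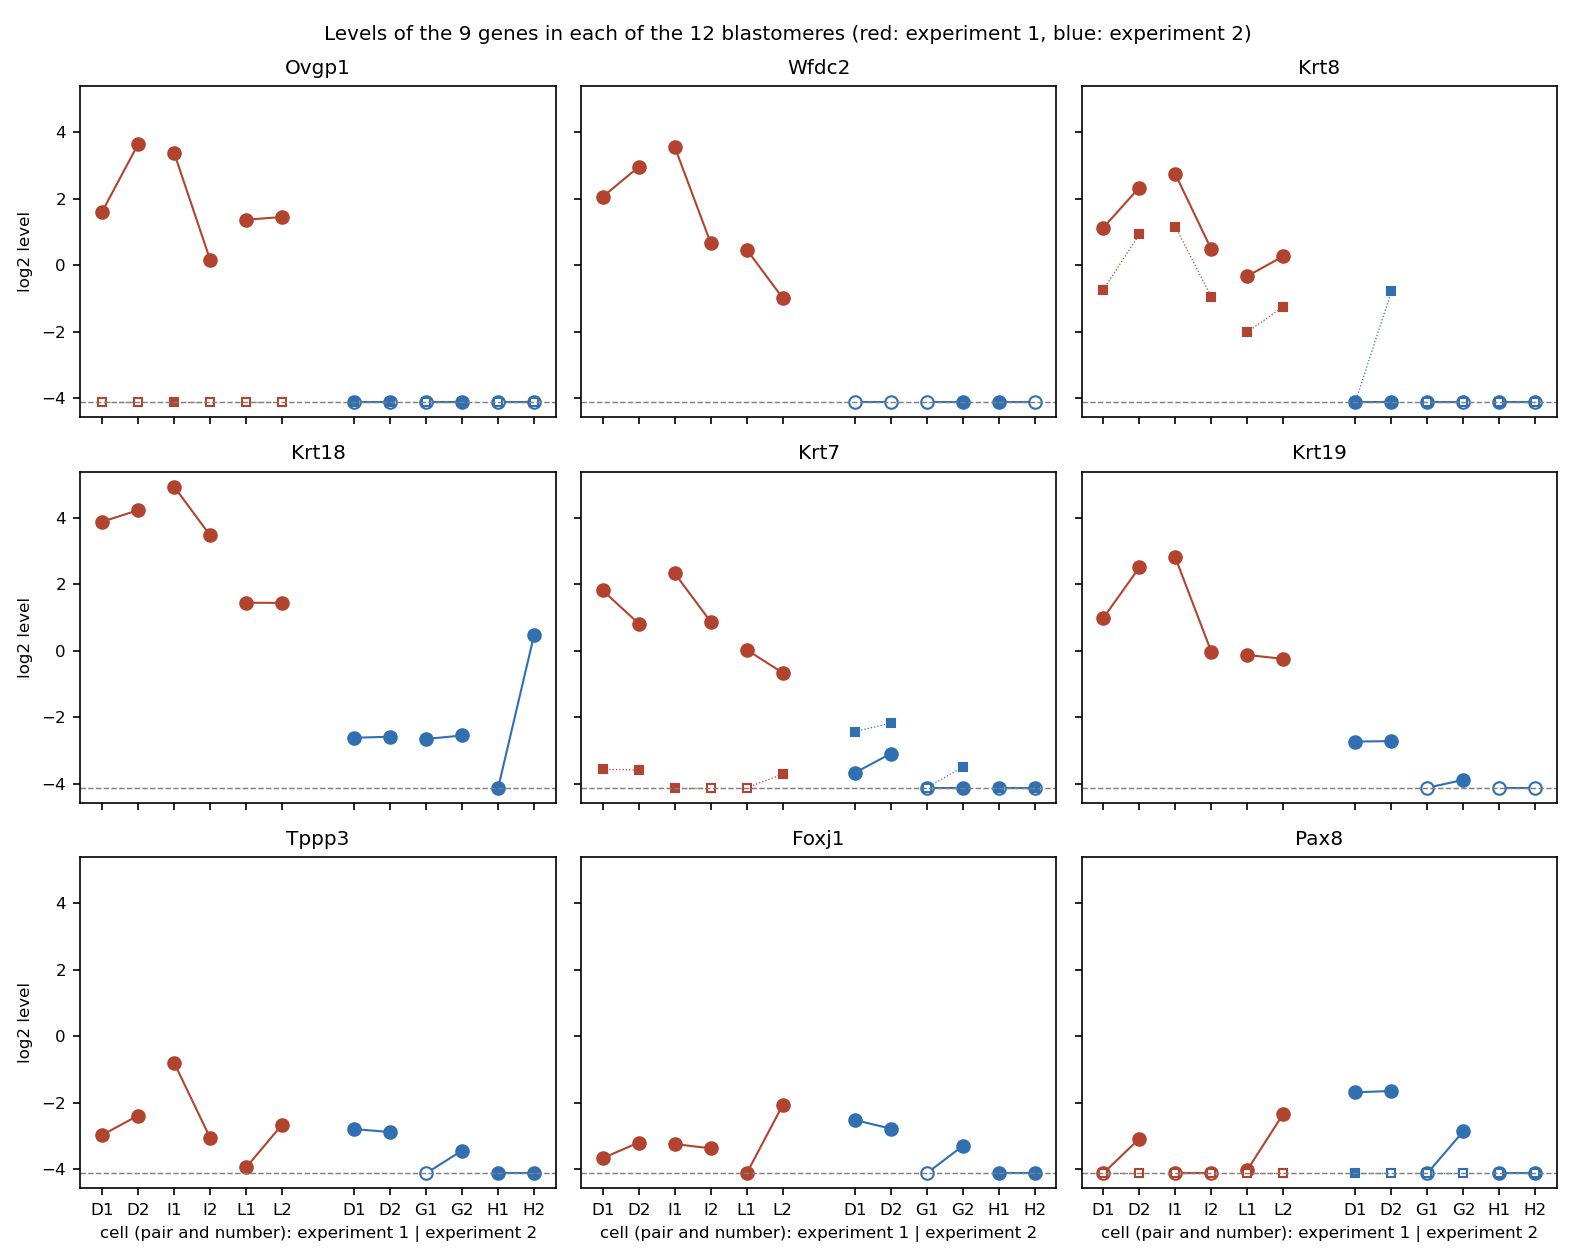
Log2 level (y axis) of the 9 genes in each blastomere (x axis, pair and cell number), experiment 1 in red on the left and experiment 2 in blue on the right. Circles are the probe with the highest mean and small squares a second probe, filled where well above background, lines join the 2 cells of an embryo, and the dashed line is the floor at -4.13. The top 6 panels hold the genes whose experiment 1 cells all lie above their experiment 2 cells by the probe with the highest mean. The second probes of Ovgp1, Krt7 and Krt8 do not separate them.

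Ovgp1 encodes oviductin, a glycoprotein of oviduct fluid known to bind the zona pellucida. Its level in experiment 1 was 1.60 and 3.64 for cells 1 and 2 of the D twins, 3.38 and 0.16 for the I twins, and 1.37 and 1.45 for the L twins. All 6 cells of experiment 2 were at the floor. The groups thus did not overlap, and the twins of pairs D and I differed widely while those of pair L hardly differed. The mean was 1.93 ± 1.33 (SD, n = 6) in experiment 1, which is at least 66.6-fold above the floor at which experiment 2 lay. A cell can pass the background of its own array and still lie under the common floor: this was so in experiment 2 for 1 cell with Ovgp1, 2 cells with Wfdc2 and 4 cells with Krt8.

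Wfdc2, a secreted protease-inhibitor-like protein also called HE4, is made by epithelia of the female reproductive tract. Its level in experiment 1 was 2.05 and 2.95 for the D twins, 3.56 and 0.66 for the I twins, and 0.46 and -0.99 for the L twins, cell 1 first. All cells of experiment 2 were at the floor. Cell 1 of pair I was the highest and pair L the lowest embryo, and the groups did not overlap. The mean of 1.45 ± 1.71 (SD, n = 6) in experiment 1 was at least 47.7-fold above the floor in experiment 2.

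Krt8 and Krt18, the partners of the first simple-epithelial filament, were both high in every cell of experiment 1. Krt8, by its brighter probe, read 1.13 and 2.33 for the D twins, 2.74 and 0.48 for the I twins, and -0.33 and 0.27 for the L twins, against the floor in all 6 cells of experiment 2. Its experiment 1 mean of 1.10 ± 1.21 (SD, n = 6) was at least 37.4-fold above that floor.
Krt18 read 3.88 and 4.22 for the D twins, 4.94 and 3.47 for the I twins, and 1.44 and 1.44 for the L twins. In experiment 2 it read -2.62 and -2.59 for the D twins, -2.66 and -2.55 for the G twins, and the floor and 0.48 for the H twins. The cells of pair L were the lowest of experiment 1 and nearly equal to each other, and cell 2 of pair H came within 0.95 of them on the log2 scale. The experiments differed by at least 5.57 (SE 1.00 with the 1 floored cell at the floor), with means of 3.23 ± 1.47 in experiment 1 and -2.34 ± 1.51 in experiment 2 (SD, n = 6 each). In cell 2 of pair H, where Krt18 was at least 24.4-fold above its twin at the floor, Krt8 and Ovgp1 were at the floor.

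Krt7 and Krt19, the other type II and type I chains of simple and ductal epithelia, were higher in every cell of experiment 1 than in any cell of experiment 2. Krt7 read 1.81 and 0.81 for the D twins, 2.33 and 0.87 for the I twins, and 0.02 and -0.67 for the L twins of experiment 1, while experiment 2 read -3.68 and -3.10 for the D twins and the floor in the other 4 cells. The difference was at least 4.74, and became 6.91 when the common floor was lowered and 6.43 when each array had its own. Cell 1 was the higher twin in all 3 embryos of experiment 1 for Krt7 alone among the 6 genes that separated the experiments.
Krt19 read 0.98 and 2.50 for the D twins, 2.80 and -0.03 for the I twins, and -0.13 and -0.25 for the L twins of experiment 1, against -2.74 and -2.72 for the D twins, the floor and -3.89 for the G twins, and the floor in both cells of pair H. The difference was at least 4.60, and 6.63 with the lower common floor. Its twins followed the order seen for Ovgp1 in pairs D and I, with cell 2 higher in the first and cell 1 in the second.

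The remaining genes, Tppp3, Foxj1 and Pax8, overlapped between the experiments. Tppp3 ranged from -3.95 through a median of -2.82 to -0.80 in experiment 1 and from the floor through -3.78 to -2.79 in experiment 2. The difference was at least 0.94 (SE 0.58 with the floored cells at the floor), and at least 0.58 without cell 1 of pair I. It became 1.90 with normexp background correction and 2.41 with the lower common floor. Normexp also moved the median over all tested probes from -0.19 to 0.76, so the normexp values of Tppp3, Foxj1 and Pax8 include that shift. The highest Tppp3 value, in cell 1 of pair I, was 4.80-fold above its twin. Foxj1 ranged from the floor through -3.31 to -2.07 in experiment 1 and from the floor through -3.71 to -2.52 in experiment 2, a difference of 0.22 (SE 0.48) that became 1.36 with normexp, 1.47 with the deposited value table and 1.77 with the lower floor, and was -0.03 without cell 2 of pair L. Pax8 ranged from the floor through -4.07 to -2.33 in experiment 1 and from the floor through -3.49 to -1.65 in experiment 2, a difference of -0.54 (SE 0.62). Both transcription factors therefore lay at or near the common floor in most cells of either experiment. By the background of each single array, Foxj1 was detected on 11 arrays and Pax8 on 8. The sign of Pax8 turned under 4 alternatives: to 0.76 with normexp, where the median over all tested probes was also 0.76, to 0.49 without pair D and cell 2 of pair G of experiment 2, to 0.16 between the slides with 2 embryos, and to 0.00 with the lower floor.

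Foxj1 and Pax8 were highest on the arrays with the largest share of detected spots. Within experiment 1 this was cell 2 of pair L, and within experiment 2 it was both cells of pair D, followed by cell 2 of pair G. Within experiment 2 the correlation of the level with the share of detected spots was 0.94 for Foxj1, 0.93 for Tppp3, 0.92 for Pax8, 0.90 for Krt19, 0.67 for Krt7 and -0.27 for Krt18, over 6 cells of 3 embryos. Ovgp1, Wfdc2 and the brighter Krt8 probe have no value there, being at the floor throughout. Within experiment 1 it was 0.74 for Foxj1 and 0.70 for Pax8, and from -0.39 to 0.44 for the other 7 genes. The mean level of the 26 other keratins on the array correlated with Pax8 at 0.87 over the 12 cells, 0.60 within experiment 1 and 0.993 within experiment 2. In the same order it was 0.69, 0.53 and 0.993 for Foxj1, and 0.04, -0.30 and 0.995 for Tppp3. The part of array background in these low levels was not tested.

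Within experiment 1 the twins were apart in a direction that depended on the embryo. In pair I, cell 1 was above cell 2 for Ovgp1 by 3.22 on the log2 scale, for Wfdc2 by 2.89, for Krt19 by 2.84, for Krt8 by 2.26, for Krt18 by 1.47 and for Krt7 by 1.46. In pair D the difference, cell 1 minus cell 2, was -2.03 for Ovgp1, -1.52 for Krt19, -1.21 for Krt8, -0.90 for Wfdc2 and -0.34 for Krt18, and only Krt7 went the other way, at 1.00. In pair L it lay between -0.60 and 0.69 for 5 of the 6, and Wfdc2 was the exception at 1.46. Pairs D and I thus held 1 richer and 1 poorer twin for most of these transcripts, and Krt18 differed least between twins of pairs D and L. In experiment 2 most twins were equal because both lay at the floor.

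**Figure D2:**
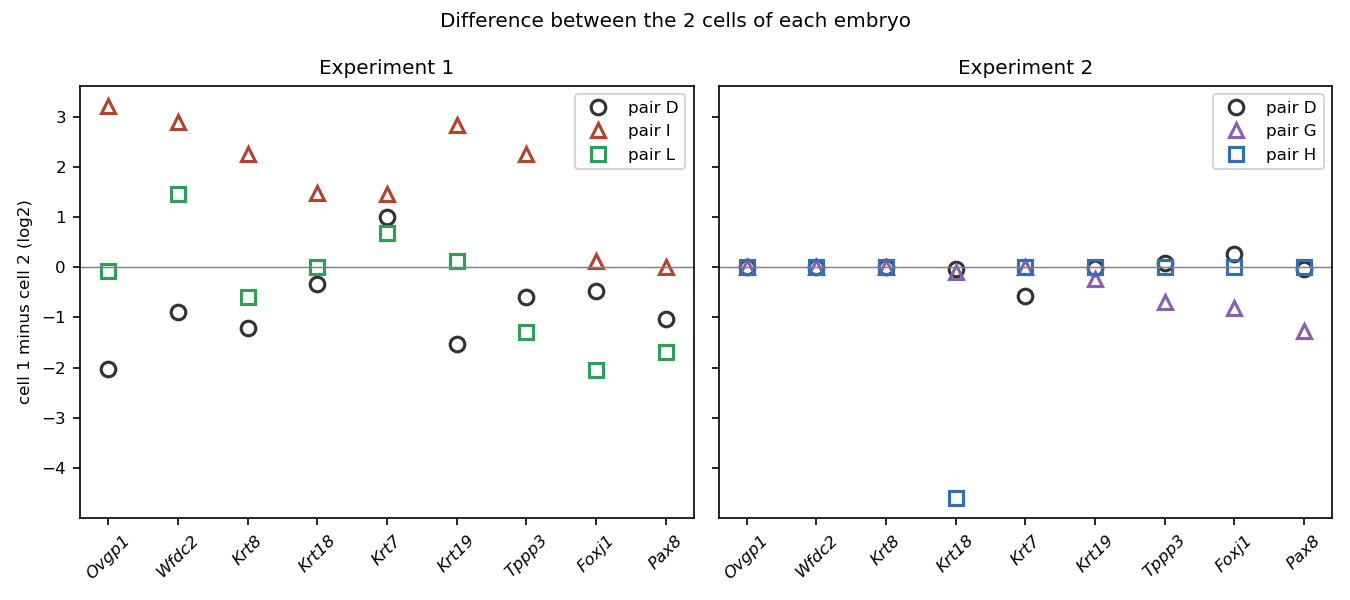
Cell 1 minus cell 2 on the log2 scale (y axis) for the 9 genes (x axis), experiment 1 in the left panel and experiment 2 in the right panel, with 1 symbol per embryo. In experiment 1 pair I lies above 0 for all but Pax8 and pair D lies below 0 for all but Krt7, and in experiment 2 Krt18 in pair H is drawn at -4.61, a bound because cell 1 was at the floor.

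Cell 1 was compared with cell 2 across the 6 embryos with limma over all 16723 probes, with embryo as a block. The genes were not picked for a direction common to the numbered cells, but their twin differences were known, so the p-values of these genes are not independent of the choice. No probe passed a Benjamini-Hochberg adjusted p of 0.05 in limma (0 of 16723, 0%), with 741 at an unadjusted p under 0.05, and the 11 tested probes of the 9 genes had adjusted p from 0.674 to 0.992. The smallest unadjusted p was that of Pax8, whose mean was -3.70 in cells 1 and -3.03 in cells 2, with cell 2 higher in 4 embryos and equal at the floor in the other two (difference -0.67, SE 0.28, limma adjusted p 0.674). Krt18 averaged 0.14 in cells 1 and 0.74 in cells 2 (difference -0.60, SE 0.74, limma adjusted p 0.796), with cell 1 higher in 2 embryos and cell 2 in 4. Ovgp1 differed by 0.18 (SE 0.61, limma adjusted p 0.938) in these numbered cells. For Ovgp1, Wfdc2 and the brighter Krt8 probe, both cells of every experiment 2 embryo were at the floor. Their twin differences there were set to 0 by the floor, and the estimate and SE average these with the differences of experiment 1. For these genes the contrast therefore cannot speak for experiment 2.

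The test of whether the cell contrast differed between experiments also called no probe in limma (0 of 16723, 0%; 877 at an unadjusted p under 0.05). Krt7 came nearest among the 9 genes. Its cell contrast was higher in experiment 1 than in experiment 2 by 1.24 (SE 0.31, limma unadjusted p 0.008, adjusted p 0.916). In experiment 2 both cells of pairs G and H were at the floor for Krt7, so their differences were set to 0. The estimate and SE rest in part on these floored values. The adjusted p of the other probes lay between 0.998 and 1.

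Krt8 and Krt18 were next compared with the other genes cell by cell within experiment 1. The 6 cells are 3 embryos and each array carries all the genes, so the coefficients describe these cells and no p is given. For scale, the 5th and 95th percentiles of Pearson r over 5435 genes detected in all 6 cells were -0.79 and 0.84 with Krt8, and -0.87 and 0.84 with Krt18, so high coefficients were common.

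Krt8 followed Krt19 most closely, with r = 0.98 (rho 0.94), a value reached by 0.26% of genes. It correlated at 0.89 (rho 0.94) with Wfdc2, at 0.86 (rho 0.83) with Tppp3, at 0.84 (rho 0.77) with Ovgp1 and at 0.72 (rho 0.77) with Krt7. Its r with its partner Krt18 was 0.89 (rho 0.94). With Ovgp1, r was 0.77 to 0.93 when each cell was left out in turn. It depended, however, on cell 2 of pair D and cell 1 of pair I together. These had the Krt8 levels farthest from the Krt8 median, and also the highest Ovgp1. Without these 2 cells r was 0.05 over 4 cells. With Wfdc2, Krt19 and Krt18 it remained 0.61, 0.83 and 0.85 without the same 2 cells. Krt8 and Ovgp1 moved the same way between the twins of all 3 embryos, and Krt8 and Krt18 in 2 of 3. These counts differ only in pair L, where the twins hardly differed, by -0.08 for Ovgp1 and 0.01 for Krt18. The counts therefore do not rank the 2 relations.

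Krt18 correlated at 0.91 (rho 1.00) with Wfdc2, at 0.90 (rho 0.83) with Krt7, at 0.85 (rho 1.00) with Krt19 and at 0.71 (rho 0.66) with Tppp3. With Ovgp1 its r was 0.56 (rho 0.71), a value that 19.4% of genes reached. This r ranged from 0.36 without cell 1 of pair I to 0.80 without cell 2 of the same pair. Without both cells of pair L, whose Krt18 levels were farthest from the Krt18 median, it was 0.85 over 4 cells. In the plot of these levels, pair L had low Krt18 in both cells at Ovgp1 levels above that of cell 2 of pair I. Krt18, Wfdc2 and Krt19 ranked the 6 cells in the same order. Foxj1 gave r = 0.10 with Krt8 and -0.16 with Krt18, and neither was stable: without cell 1 of pair L they were -0.39 and -0.81, and without cell 2 of pair L 0.83 and 0.90. Pax8 gave -0.08 with Krt8 and -0.42 with Krt18, with 3 of the 6 cells at its floor, and without cell 2 of pair L these were 0.41 and 0.18.

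**Figure D3:**
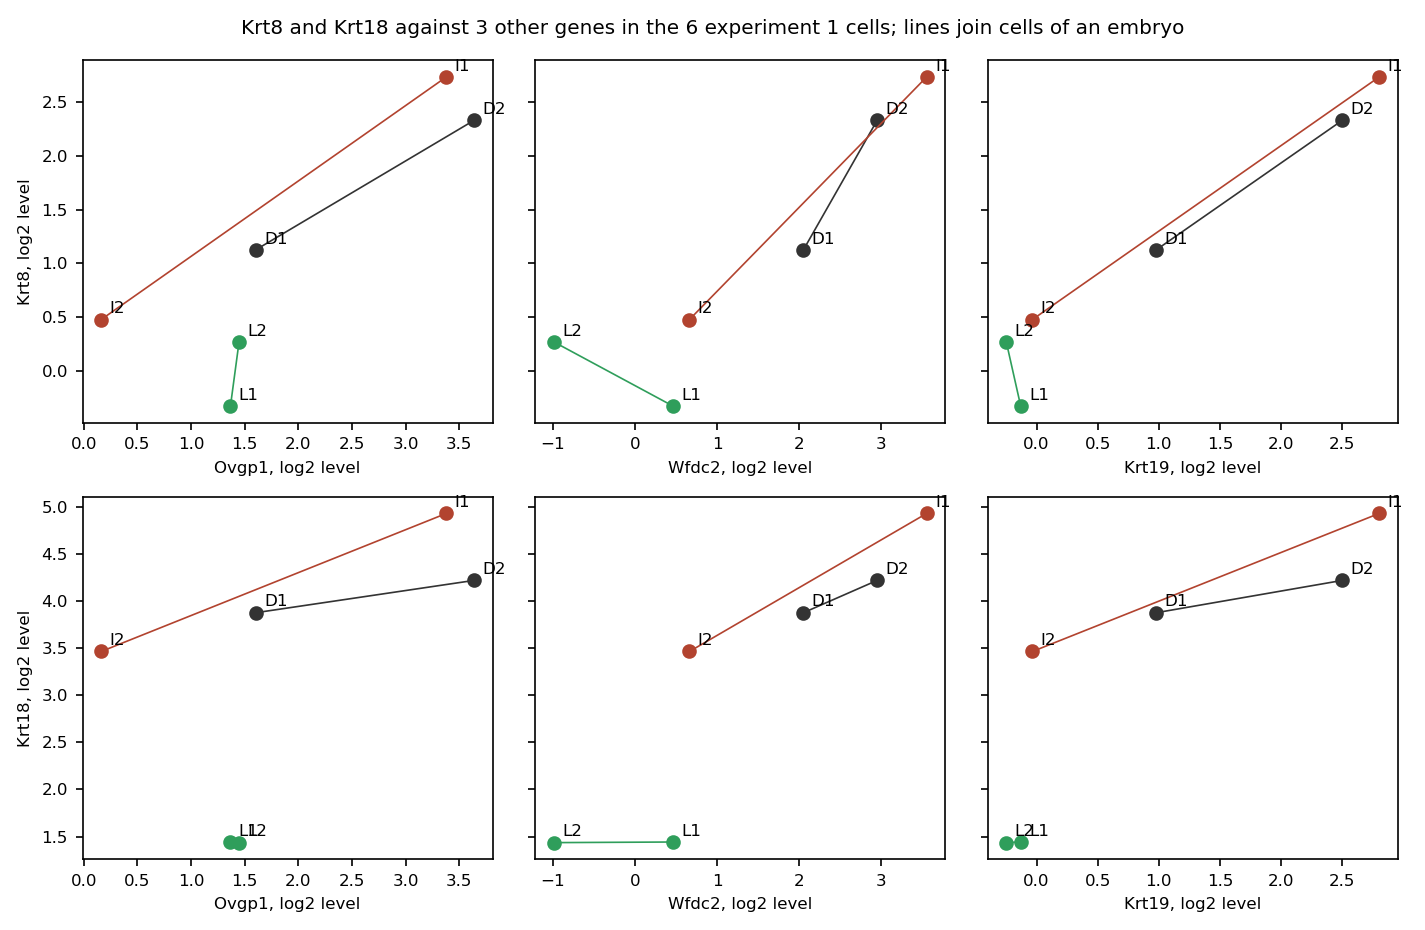
Log2 level of Krt8 (top) and Krt18 (bottom) on the y axis against Ovgp1, Wfdc2 and Krt19 on the x axes in the 6 cells of experiment 1, coloured by embryo, with a line joining twins. Krt8 against Krt19 lies nearest to a line (r = 0.98), and in the Krt18 panels both cells of pair L sit together at 1.44.

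The genes whose pattern over these 6 cells was most like that of Krt18 were Rcn3, Myl9, Mrps18b, Dctn6, Trim26, Tagln, Vcp and Bicc1, each with r = 0.99. Of the 9 genes the best placed was Wfdc2, at rank 116 of 5435, and Ovgp1 was at rank 1056. The genes most like Ovgp1 were Ubxn6, Sarnp, 1110038F14Rik, Tyms, Surf1, Rps9, Ndufs7 and Rpn1, with r from 0.97 to 0.98, and the nearest of the 9 was Krt19 at rank 76 with r = 0.91. Not all of these separated the experiments: Vcp and Bicc1 differed by -0.10 and -0.17 between them.

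Of the 4 genes with 2 probes, only Krt8 had probes that followed each other in experiment 1. Its second probe read -0.74 and 0.92 for the D twins, 1.16 and -0.96 for the I twins, and -2.01 and -1.25 for the L twins of experiment 1. In experiment 2 it was at the floor in 5 cells and at -0.79 in cell 2 of pair D. The 2 probes rose and fell together over the 6 cells of experiment 1 (r = 0.99), and r was 0.88 over all 12 cells. They parted in that 1 cell of experiment 2, where the brighter probe stayed at the floor, so the second probe's groups overlapped and its difference was at least 3.09.

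The second Krt7 probe stayed between the floor and -3.57 in experiment 1, and between the floor and -2.18 in experiment 2. Its r with the first probe was -0.08 in experiment 1, 0.90 in experiment 2, where both were above the floor only in pair D, and -0.26 over 12 cells. It did not separate the experiments, with a difference of -0.46 (SE 0.38). Its level correlated with the share of detected spots at 0.80 over the 12 cells, at -0.07 within experiment 1 and at 0.89 within experiment 2. The second probes of Ovgp1 and Pax8 were at the floor on all 12 arrays, and both were left out of the fit because they passed background on fewer than 6 arrays. Probe sequences were not used here, so where each probe lies in its transcript is not given.

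**Figure D4:**
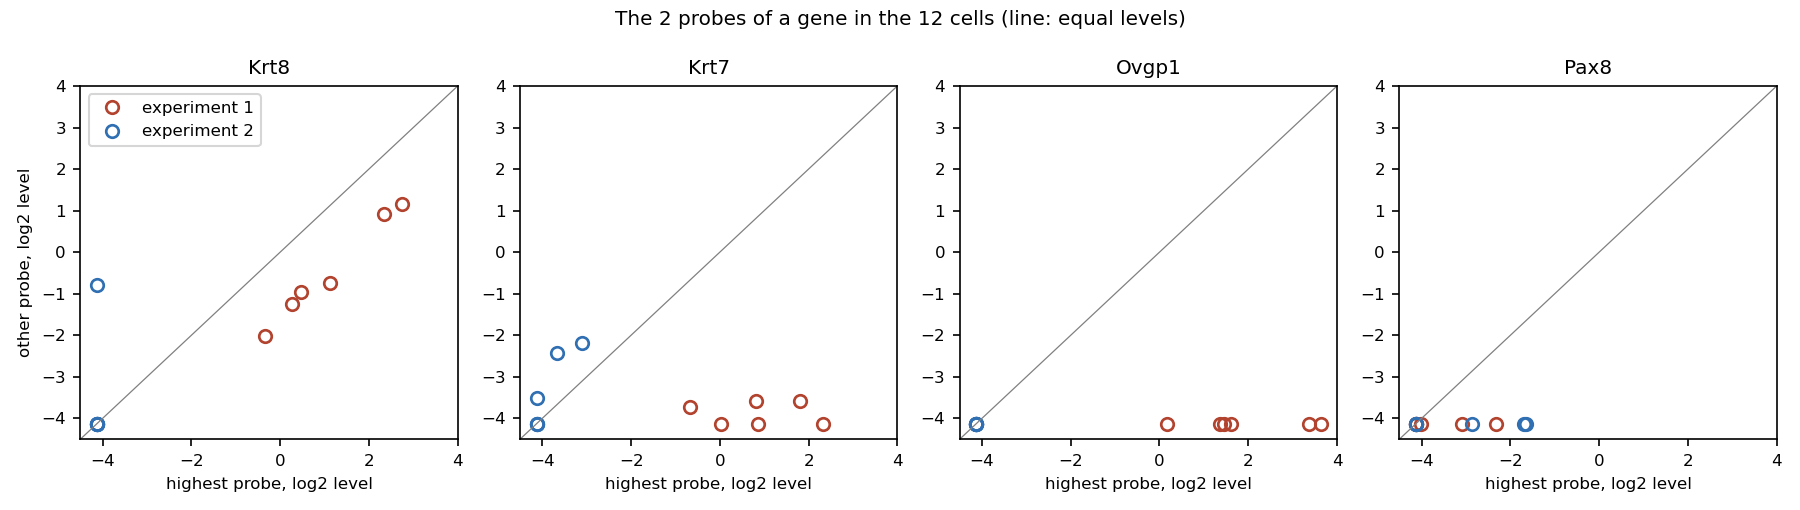
Log2 level of the second probe (y axis) against the highest probe (x axis) for Krt8, Krt7, Ovgp1 and Pax8 in the 12 cells, with experiment 1 in red, experiment 2 in blue and a line of equal levels. The Krt8 probes rise together, while the second probes of Ovgp1 and Pax8 stay at the floor of -4.13.

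Other transcripts of oviduct secretory cells were read from a list of 17 genes on the array, of which 14 were tested. All cells of experiment 1 were above all of experiment 2 for 5: Msln, C3, Ltf, Slpi and Clu. Over all tested probes this held for 3.96%. This list and those below were drawn up with earlier results of these data known, so nothing is read from their counts. C3, a complement component that oviduct epithelium secretes, ranged from 3.02 to 5.52 in experiment 1 and from the floor to -2.10 in experiment 2, a difference of at least 8.03. Msln, mesothelin, differed by at least 5.89, Ltf, lactotransferrin, by at least 4.72 and Slpi, an antiprotease, by at least 3.43. The median of the list was 1.40. Epcam, Cldn4 and Emx2, also of this list, overlapped between experiments and were highest in both cells of pair D of experiment 2, as was Pax8.

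Of 23 ciliated-cell genes on the array 15 were tested. Fam183b, Tekt1 and Dynlrb2 separated the experiments, against 3.96% of all tested probes, while Foxj1 and Tppp3 did not. Tekt1, a tektin of ciliary microtubules, ranged from -1.28 to 1.93 in experiment 1 and from the floor to -3.04 in experiment 2, a difference of at least 4.67. Fam183b differed by at least 4.82 and Dynlrb2, a dynein light chain, by at least 2.69. Tekt4 differed by 2.10 with overlap. The list's median was 0.40.

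The 26 other keratins on the array had a low mean signal, -4.01 to -2.81 in experiment 1 and -3.70 to -3.05 in experiment 2. Of 13 tested, none separated the experiments in either direction, against 3.96% and 3.7% of all tested probes. With 13 genes this count is near those shares, and nothing is read from it. The median difference of the tested keratins was -0.17. Those of the 26 with the largest differences lay at or near the floor in most cells: Krt27 (-0.82), Krt14 (-0.79), Krt4 (-0.74) and Krt17 (0.71). Of 21 other filament and linker genes 14 were tested, and 1 separated the experiments, against 3.96% of all tested probes. This was Vim, the filament protein of mesenchymal cells, with a difference of at least 4.74 and levels from 0.81 to 1.98 in experiment 1. Of 15 trophectoderm genes on the array 11 were tested. Krt8 and Krt18 were the only 2 to separate the experiments, against 3.96% of all tested probes, with a list median of -0.05.

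Some markers of other cells also separated the experiments. Of 16 stroma and smooth muscle genes, 11 were tested and 8 separated the experiments in the same direction, against 3.96% of all tested probes. The median difference was 4.10. Tagln, an actin-binding protein of smooth muscle, read 1.72 and 1.91 for the D twins, 3.42 and 1.63 for the I twins, and -1.18 and -1.37 for the L twins of experiment 1. Sparc, Col1a1, Tagln and Myl9, named for the largest differences between experiments, correlated with Krt18 over the 6 cells at 0.94 to 0.99. The other tested genes of the list varied. Their r was 0.96 for Acta2, 0.95 for Col3a1, 0.91 for Col1a2 and 0.66 for Dcn. It was 0.58 for Fbln1, 0.51 for Cnn1 and 0.26 for Myh11, which all overlapped between the experiments. The mean signal of the list on the log2 scale spanned -1.43 to 2.13 in experiment 1 and -3.18 to -2.25 in experiment 2, lowest in pair L and highest in cell 1 of pair I, as for Krt18. The part of such cells in the levels of the keratins was not tested, and fewer cells of a type and less RNA per cell cannot be told apart in the RNA of a sample.

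Of 14 blood and macrophage genes on the array 7 were tested. Of them 1, Lyz2, separated the experiments, against 3.96% of all tested probes, and the median difference was 1.20. Lyz2, lysozyme of macrophages, read 2.07 and 2.83 for the D twins, 4.33 and 3.26 for the I twins, and 7.77 and 4.83 for the L twins of experiment 1, and was at the floor in 5 cells of experiment 2. Pair L, the lowest embryo for Krt18, was the highest for Lyz2, and r between Lyz2 and Krt18 was -0.69. Adgre1, Fcer1g and C1qc, of the same list, were also highest in cell 1 of pair L, at 1.79, 1.40 and 1.59. Hba-a1, a haemoglobin chain of red blood cells, was instead highest in cell 1 of pair I, at 0.01, and its r with Krt18 was 0.80. The mean signal of the 14 genes on the array ran from -1.43 to 4.05 in experiment 1 and from the floor to -3.70 in experiment 2.

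Of 20 cumulus and granulosa genes on the array 8 were tested. None separated the experiments in either direction, against 3.96% and 3.7% of all tested probes, and the median difference was -0.40. The mean signal of the 20 genes was -3.48 to -2.57 in experiment 1 and -2.75 to -1.95 in experiment 2. Of 8 sperm genes 3 were tested, none separated the experiments, against the same shares, and their median difference was -0.43. Among the oocyte and 2-cell transcripts the median difference was -0.13 over 17 tested genes. Of these, 1, Zar1, was higher in every cell of experiment 1 than in any of experiment 2, against 3.96% of all tested probes. Against 3.7% of all tested probes, 2 were lower throughout: Tcstv1, by -2.11, and Tcstv3, by -1.45. No gene of any of these lists passed the limma test between cell 1 and cell 2.

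**Figure D5:**
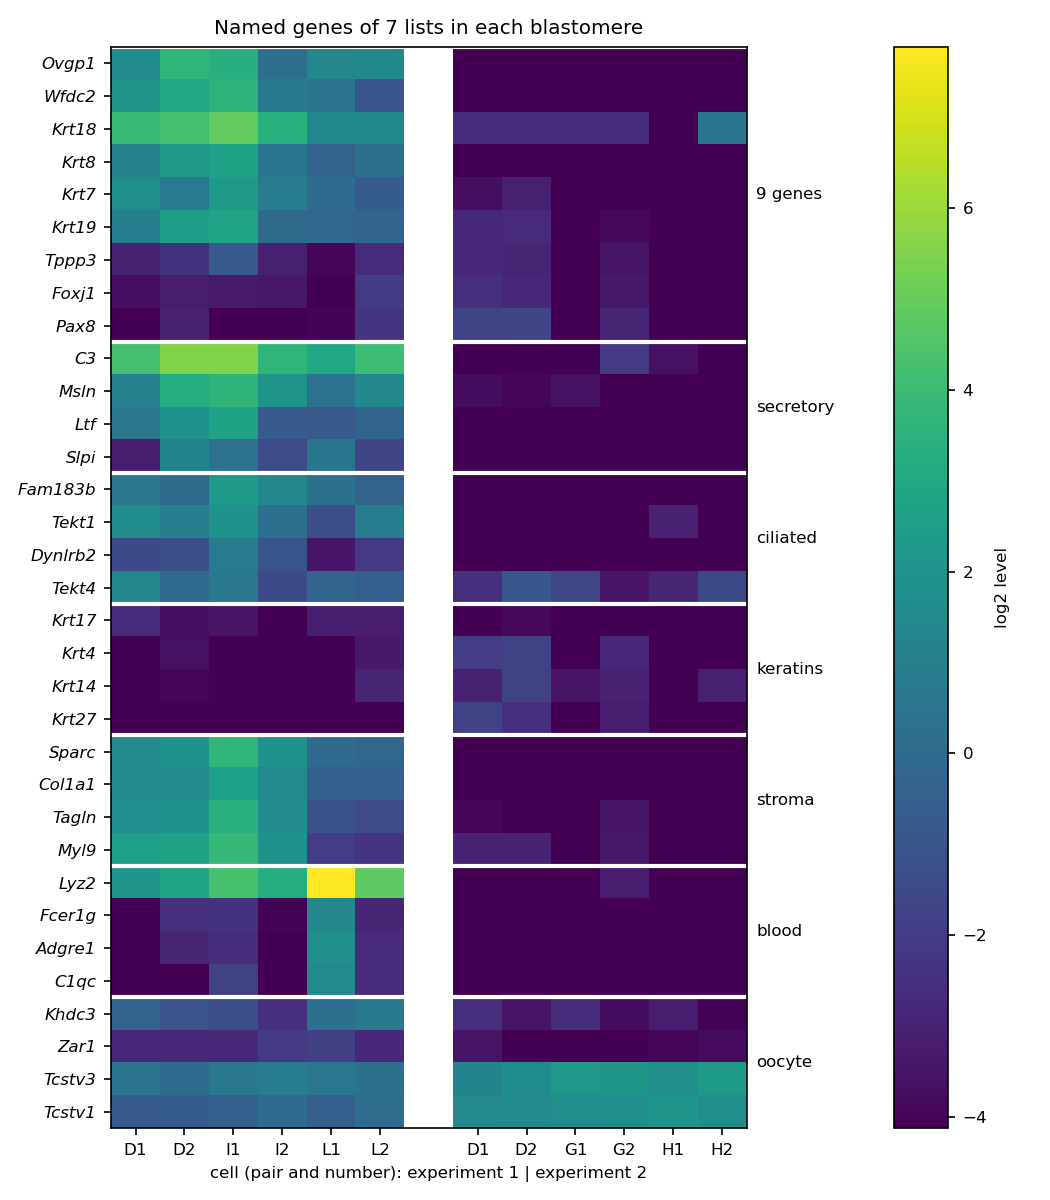
Log2 level (colour) of the 9 genes and of up to 4 named genes from each of 6 other lists (rows) in the 12 cells (columns), experiment 1 on the left and experiment 2 on the right. In experiment 2 most oviduct, stroma and blood genes lie at or near the floor of -4.13, with Krt18 (0.48 in cell 2 of pair H), Pax8 (-1.65 in cell 2 of pair D) and Tekt4 among those above it, and Lyz2 is brightest in cell 1 of pair L at 7.77.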

How the data were processed

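Intensity values of 12 arrays were used as the authors deposited them. Per the file headers, spots were quantified in Feature Extraction 9.1.3.1 of Agilent. The deposited value table holds the same intensity divided by 1 constant per array and served as an alternative. The genome build of the probes is not given in the sources used here. From the deposited values, the processed signal of the labelled channel was averaged over each probe's spots without outlier spots, scaled, floored and put on the log2 scale. No spot was saturated, and the number of arrays limits the precision.

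Of 41174 probes, 22951 were named by accession through the RefSeq gene table of GRCm38.p6, 9768 by a current or older symbol, 2011 by the file's own name and 6444 not at all. The probe of Tppp3 carries an older clone name in the file. For a gene with several probes, the probe of highest mean log2 level stood for the gene. Probes detected on at least 6 arrays were fitted with limma 3.58.1 in R 4.3.3. Embryo was a fixed block for the cell contrast and its interaction with experiment. For the difference between experiments it was a random block with a correlation of 0.35, estimated on the reported values and kept for all alternatives. SE are those of this fit, and adjusted p-values run over all tested probes. Correlations were computed with numpy 2.4.6 and pandas 2.3.3. The fit was tested on simulated data.

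The 9 genes, the gene lists and the floor were chosen with earlier results of these data known. Named genes were all 9 genes, the 8 most like Krt18 and the 8 most like Ovgp1 in experiment 1, and up to 4 per list with the largest difference between experiments among genes detected in at least 3 cells. Clu, Epcam, Cldn4, Emx2, Hba-a1 and the other tested stroma and smooth muscle genes were named after their values had been seen. Labels do not say whether cells of different embryos came from separate females. Alternatives were other scalings, background correction, floors, filters and probe summaries, and leaving out each cell.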

Additional observations from a re-analysis of the deposited data

Results flagged for a closer look

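In 19 sets of 6 cells with any spread, 1 for each probe of the 9 genes and each experiment, a cell was marked where its gap to the nearest cell exceeded 0.625 of the whole range, which chance gives in about 1 of 20 sets. This held for 2 sets, both in experiment 2. Krt18 in cell 2 of pair H was at 0.48 while the nearest cell was at -2.55, a gap of 0.659 of the range. The second Krt8 probe in cell 2 of pair D was at -0.79 while the other 5 cells were at the floor of -4.13, so the gap was the whole range, a ratio of 1 that any such set gives by construction and to which the chance rate does not apply. Both marks depend on the floor: with a lower common floor, applied to them after seeing the data, the gap was 0.616 of the range for Krt18 and 0.522 for the second Krt8 probe, each under 0.625. The partner keratin was not raised in either place: the brighter Krt8 probe was at the floor in cell 2 of pair H, and Krt18 was at -2.59 in cell 2 of pair D, beside -2.62 in its twin. In the unused Cy3 channel of the experiment 1 arrays 0 of 78 spots of these genes were well above background.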

How the results depend on the processing

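The median difference over the 9 genes, 4.74, was 6.27 with the deposited value table, 6.63 once the common floor was lowered and 6.27 once each array had its own floor, all of which lower the experiment 2 values at the floor, and 3.03 with the mean over the probes of a gene, which brings in the dim second probes. It ranged from 4.45 to 5.05 when each cell was left out in turn, and was 4.76 between the slides with 2 embryos. A replicate block for the cell number left it at 4.74. The labels do not say whether the cell numbers pair cells of different embryos. Cell differences of 2 embryos correlated at -0.08 to 0.26 with a median of -0.01, over 0.1 in 3 of 15 comparisons. Leaving out pair I or pair L of experiment 1, or the 3 arrays of experiment 2 with the most detected spots, chosen after seeing the data, gave 4.40, 5.33 and 5.10. The count of called probes for the cell contrast and for its difference between experiments was 0 in limma under each of 20 alternatives, with 458 to 1652 and 393 to 1355 probes at an unadjusted p under 0.05. Those alternatives include leaving out each cell, which also drops its twin from this test. The median of the 14 correlations of Krt8 and Krt18 with the other genes was 0.78, and 0.65 to 0.84 when each cell was left out, lowest without cell 1 of pair I. The agreement of the Krt8 probes over all cells, 0.88, was 0.75 over the 8 cells with both above background. Of the values for single genes, 188 of the differences between experiments stayed within 1 SD of the reported value and 28 did not, and 159 correlations stayed within 0.1 and 51 did not. The median over all tested probes moved from -0.19 to between -0.23 and 0.76 under other scalings, background corrections and floors. Signal over background limits all differences that involve cells at the floor. With the lower common floor they were 9.04 for Ovgp1, 7.59 for Wfdc2, 6.76 for Krt8, 6.91 for Krt7, 6.63 for Krt19 and 5.63 for Krt18. Foxj1, Pax8 and Tppp3 had cells at or near the floor in both experiments, but Tppp3 reached -0.80 in experiment 1.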
